A study of Mus musculus with 25 samples.

Results

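Arg1, Odc1, Amd1, Srm, Sat1, Oaz1, Oaz2 and Oaz3 carry out or restrain the conversion of arginine into polyamines, and their transcripts were followed through the injury of mouse muscle by contraction or by freezing. A gene was represented by a probe set that the array's annotation assigns to that symbol alone, taking the one with the highest mean over all arrays where there were several. Of the 8 genes, 6 had such a probe set, 1 each, among 8251 genes represented in this way on the array. The 6 were Arg1 (93097_at), Odc1 (160084_at), Srm (92540_f_at), Sat1 (96657_at), Oaz2 (101000_at) and Oaz3 (160467_at). The 2 probe sets that list Oaz1 also list a second symbol, and no listed probe set names Amd1, so these genes have no value here. All 6 measured genes passed the filter on low values. The set was chosen on the measured signals of Arg1 and Odc1, which differed between the injuries over time. Their values below are therefore a description with no test, and Srm, Sat1, Oaz2 and Oaz3 were tested.

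Tibialis anterior muscle, a fast muscle at the front of the shin, was taken from female C57BL/6J mice aged 2 to 3 months, and total RNA of each sample was hybridised to 1 Affymetrix U74Av2 array, 25 in all. Contraction injury consisted of 150 eccentric contractions in the living animal, in which the active muscle is lengthened, and freeze injury of a steel probe 6 mm across, cooled on dry ice and held to the muscle for 10 s. Muscles were taken 6 h, 1 day, 3 days and 7 days later, with 2 arrays of contraction at 1 day and of freeze at 7 days and 3 of every other injury and time. The 3 control arrays were of uninjured muscle, and no group carried a transgene or drug according to the labels. The samples were whole muscle, so for every gene below a change in the number of cells of a type and a change in RNA per cell cannot be told apart. Whether any samples came from the same animal is not in the labels, and p-values therefore rest on sample-to-sample spread that may be partly technical.

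Signals are on a linear scale. They were tested as log2(signal + 13), a log2 difference is on that scale, and it understates the fold of dim genes. A gene was called where its p-value, from limma's model of 9 group means and adjusted by the Benjamini-Hochberg method over the 9506 probe sets tested, was under 0.05. The freeze 3-day array labelled 436 stood apart. Its log2 values correlated at 0.803 to 0.804 with the other freeze 3-day arrays and at 0.947 to 0.952 with the controls, whereas arrays of a group otherwise correlated at 0.939 to 0.976. For Arg1 and Odc1 the freeze 3-day values, and for the tested genes the calls that changed, are given with and without it. Counts and most values of the gene lists beyond these members rest on all 25 arrays. Pathway genes on those lists were called against control in 75 of 552 tests over all arrays and in 157 without array 436. The share of all probe sets called rose as well, at 3 days after freezing from 17.9% to 42.4%.

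Arginase 1, encoded by Arg1, splits arginine into urea and ornithine. Ornithine decarboxylase, encoded by Odc1, turns ornithine into putrescine, the first polyamine, and is among the most rapidly turned over enzymes. Spermidine synthase (Srm) builds spermidine on putrescine with a group that Amd1 supplies, and spermidine/spermine acetyltransferase (Sat1) marks polyamines for export or back-conversion. Antizymes (Oaz1, Oaz2 and Oaz3) bind ornithine decarboxylase, in some cases sending it to the proteasome, and curb polyamine uptake. Their synthesis rests on a ribosomal frameshift that polyamines favour, so that transcript level is only one of the layers of control. Arg1 is a liver gene that macrophages also express in wounds, and polyamines are needed by dividing and growing cells.

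The DNA just upstream of the start of Odc1, Sat1 and Oaz2 is shown because these are the measured members with an entry in RefSeq's promoter table. Each line gives the 250 bases before the start in that table, on GRCm38.p6, 5′ to 3′ on the gene's strand, with GC boxes (GGGCGG on either strand, reading CCGCCC on the other) in capitals. The windows lie at chr12:17544623-17544872 on the plus strand for Odc1, chrX:155216450-155216699 on the minus strand for Sat1 and chr9:65676298-65676547 on the plus strand for Oaz2.
Odc1: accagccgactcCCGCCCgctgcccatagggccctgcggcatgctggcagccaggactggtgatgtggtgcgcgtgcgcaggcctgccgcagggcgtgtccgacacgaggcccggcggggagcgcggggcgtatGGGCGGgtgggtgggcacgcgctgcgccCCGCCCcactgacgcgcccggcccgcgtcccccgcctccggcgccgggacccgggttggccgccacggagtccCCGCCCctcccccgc
Sat1: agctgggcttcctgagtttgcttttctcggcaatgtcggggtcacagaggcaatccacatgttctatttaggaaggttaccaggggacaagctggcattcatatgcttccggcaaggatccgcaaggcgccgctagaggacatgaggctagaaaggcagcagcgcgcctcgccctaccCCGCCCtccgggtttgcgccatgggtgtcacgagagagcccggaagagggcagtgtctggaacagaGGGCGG
Oaz2: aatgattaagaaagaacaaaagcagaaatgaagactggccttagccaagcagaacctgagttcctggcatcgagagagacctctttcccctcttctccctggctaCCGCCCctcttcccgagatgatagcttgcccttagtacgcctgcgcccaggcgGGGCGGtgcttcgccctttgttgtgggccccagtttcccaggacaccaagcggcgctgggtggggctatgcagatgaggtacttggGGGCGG

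The Odc1 window held 4 GC boxes, the Oaz2 window 3 and the Sat1 window 2, and 32.7% of 32851 windows of the same length held at least 1. The Odc1 window was 80.0% G and C, above the 95th percentile of all windows (73.6%), while Sat1 (59.6%) and Oaz2 (58.0%) lay nearer the median of 52.4%. Neither the E-box CACGTG, held by 6.0% of all windows, nor the AP-1 letters TGACTCA (4.5%), nor the STAT letters TTCNNNGAA (7.0%) occurred in these 3 windows on either strand. GC boxes were thus present upstream of all 3 genes. Arg1, Srm and Oaz3 have no entry in the table.

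Arg1 was close to the bottom of the scale in uninjured muscle and reached its peak 1 day after freezing. The control arrays read 9.1, 5.1 and 4.2 signal units. After freezing, Arg1 read 99.9, 42.2 and 63.7 at 6 h and 747, 1305 and 1092 at 1 day. It then read 58.5 and 62.2 at 3 days, with 5.0 on array 436, and 14.5 and 25.2 at 7 days. Every freeze array other than 436 thus stood above every control array, and the lowest 1-day array stood far above the highest of the other arrays. After contraction Arg1 read 6.2, 24.7 and 19.9 at 6 h, 54.1 and 29.7 at 1 day, and 46.5, 44.2 and 19.5 at 3 days. At 7 days after contraction it read 5.7, 4.9 and 5.8, inside the range of the controls. Contraction arrays at 1 and 3 days did not overlap the controls, and those at 6 h did.

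The log2 difference from control of Arg1 after freezing was 2.04 at 6 h, 5.77 at 1 day, 1.27 at 3 days and 0.77 at 7 days, each with a standard error of 0.43 to 0.48. All control signals lie below the 13 added before log2, so this constant sets the size of these differences. The 1-day value was 7.22 with 1 added and 3.96 with 64. Without array 436 the 3-day value was 1.95 ± 0.35 (SE). After contraction the corresponding differences were 0.60, 1.49, 1.34 and −0.04. The freeze minus contraction difference was therefore 1.44 at 6 h and 4.27 at 1 day (19.3-fold). It was −0.06 at 3 days, or 0.61 without array 436, and 0.81 at 7 days. Arg1 was thus set apart between the injuries mainly in the first day.

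In order of mean signal, Arg1 stood at 1048 ± 281 (SD, n = 3) in freeze 1 day, followed by 68.6 ± 29.2 (SD, n = 3) in freeze 6 h. Next came 41.9 in both contraction 1 day and freeze 3 days, 36.7 in contraction 3 days, 19.9 in freeze 7 days and 16.9 in contraction 6 h. The controls (6.13 ± 2.61, SD, n = 3) and contraction 7 days (5.47 ± 0.49, SD, n = 3) were last. Only the first step of this order separated neighbouring groups without overlap of their arrays. Without array 436 freeze 3 days averaged 60.4 and stood next after freeze 6 h, clear of contraction 1 day.

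**Figure D1:**
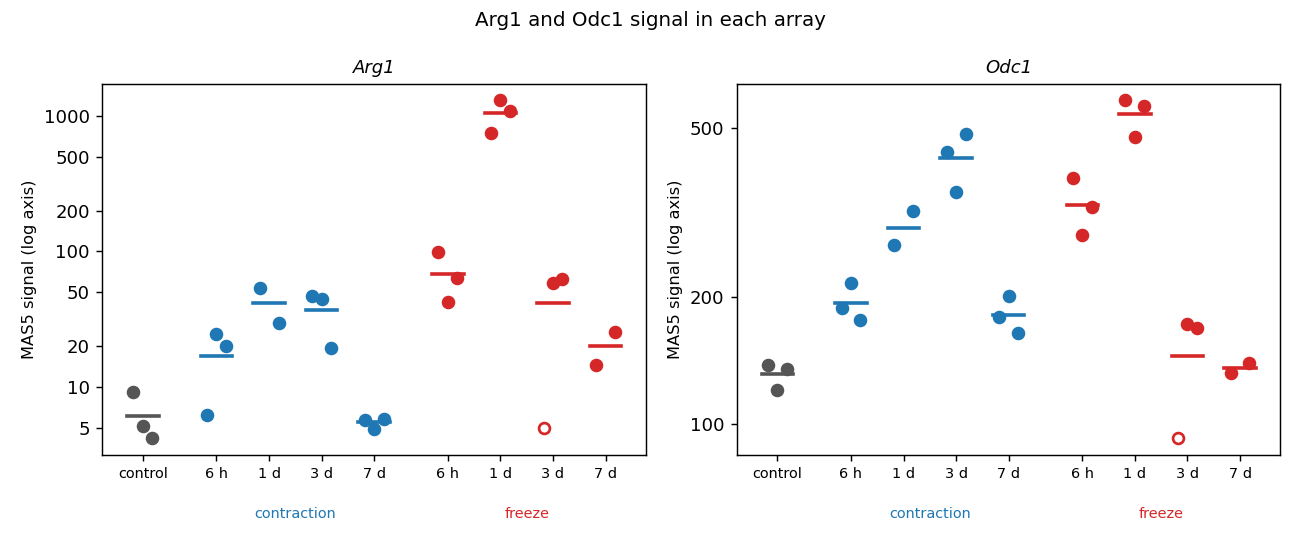
MAS5 signal (vertical log axis) of Arg1 and Odc1 in each of the 25 arrays by group along the horizontal axis. Points are arrays, horizontal bars are group means of the signal, grey is control, blue is contraction, red is freeze, and the open point is array 436. The 3 freeze 1-day arrays of Arg1 lie at 747 to 1305, and Odc1 peaks at 1 day after freezing and at 3 days after contraction.

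Odc1 was readily detected in uninjured muscle and rose and fell on a different schedule in each injury. The controls read 138, 121 and 135. After freezing, Odc1 read 382, 279 and 326 at 6 h and 580.0, 475 and 563 at 1 day. It was back at 173 and 168 at 3 days, with 93.0 on array 436, and at 132 and 139 at 7 days. The freeze peak thus fell on the first day, and the 7-day arrays overlapped the controls. After contraction Odc1 read 188, 216 and 176 at 6 h, 264 and 318 at 1 day, and 439, 352 and 482 at 3 days. It stood at 179, 201 and 165 at 7 days. Every contraction array exceeded every control array, and the highest contraction values came at 3 days.

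The log2 difference from control of Odc1 after freezing was 1.23 at 6 h, 1.93 at 1 day (3.81-fold), 0.08 at 3 days (0.35 without array 436) and 0.04 at 7 days, with standard errors of 0.20 to 0.22. After contraction it was 0.51, 1.07, 1.59 (3.01-fold) and 0.43. The freeze minus contraction difference was 0.72 at 6 h and 0.86 at 1 day, then −1.50 at 3 days (−1.24 without array 436) and −0.38 at 7 days. Its sign thus turned between 1 and 3 days, and at each of the 4 times the arrays of the injuries did not overlap. Odc1 was chosen for differing between the injuries over time, so this describes the choice and lends it no support. The mean of the 4 differences, −0.08 ± 0.11 (SE), does not show this crossing.

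In order of mean signal, Odc1 stood at 539 ± 56.4 (SD, n = 3) in freeze 1 day and at 424 ± 66.3 (SD, n = 3) in contraction 3 days. Freeze 6 h (329), contraction 1 day (291), contraction 6 h (193) and contraction 7 days (182) followed. Freeze 3 days (145, or 171 without array 436), freeze 7 days (136) and control (131 ± 9.45, SD, n = 3) closed the order. Over all 25 arrays the step from contraction 1 day to contraction 6 h was the only one between neighbours without overlap. Contraction 3 days thus stood high in the order for Odc1 and in the middle of the order for Arg1, below freeze 3 days.

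**Figure D2:**
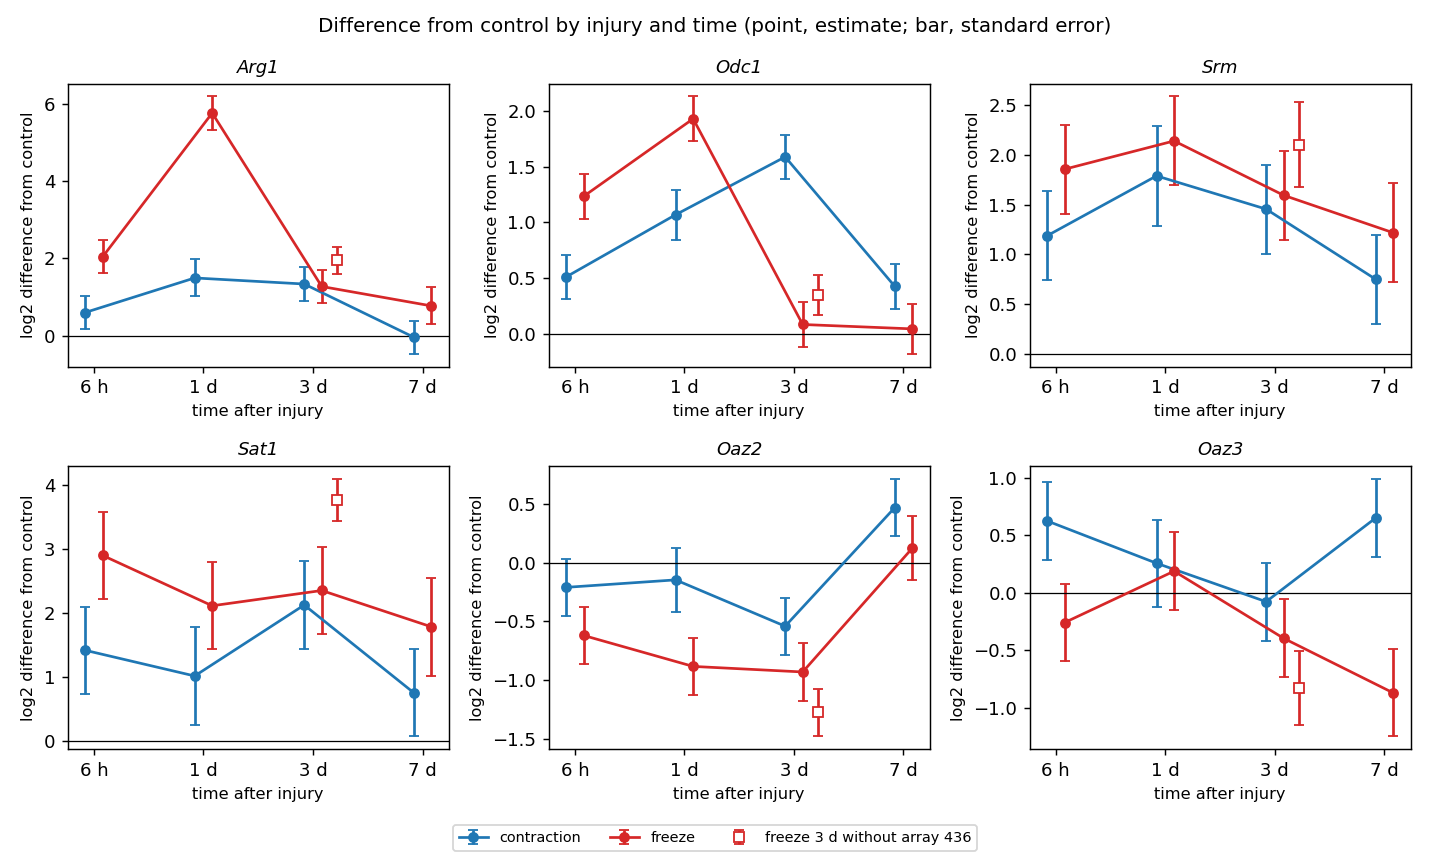
Log2 difference from control (vertical axis) of each measured gene at the 4 times after contraction (blue) and freeze (red), as model estimates with standard errors. The open square is freeze 3 days without array 436. Odc1 crosses between injuries, at 0.08 after freeze and 1.59 after contraction at 3 days, and Oaz2 lies below 0 in both injuries until 3 days.

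Of the 4 tested genes, Srm and Sat1 rose and Oaz2 fell in freeze-injured muscle. At 6 h after freezing 2 of the 4 were called, both higher, against 4.85% of all probe sets tested. At 1 day 3 were called, 2 higher and 1 lower, against 14.2%, and at 3 days again 2 higher and 1 lower, against 17.9%. None was called at 7 days after freezing (5.29% of all probe sets), where 3 had an unadjusted p under 0.05. After contraction 1 of the 4 was called, at 3 days and higher (8.25% of all). None was called at 6 h (1.87%), 1 day (1.79%) or 7 days (0.537%), where 1, 1 and 0 had an unadjusted p under 0.05 by limma. In all, 9 of 32 tests against control were called.

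Without array 436, 17 of the 32 were called, against larger shares of all probe sets as well. After freezing these were 3 of 4 at 6 h (11.4% of all), 3 at 1 day (26.8%), all 4 at 3 days (42.4%) and 2 at 7 days (19.5%). After contraction they were 1 at 6 h (3.36%), 1 at 1 day (4.33%), 3 at 3 days (22.8%) and 0 at 7 days (3.03%), where 3 had an unadjusted p under 0.05.

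The median log2 difference of these 4 genes from control lay between 0.60 and 1.15 over the 8 groups, beside medians of −0.09 to −0.03 over all probe sets tested. The genes were chosen with earlier results known, so this is a description. In the F test over all 8 differences from control each of the 4 was called (Srm adjusted p = 0.024, Sat1 0.044, Oaz2 0.0023 and Oaz3 0.040), as were 26.2% of all probe sets. Without array 436 the same 4 were called, against 49.3%. The interaction of injury and time was called for none of the 4, against 0.589% of all probe sets (4.45% without array 436, when again none of the 4 was called), and none had an unadjusted interaction p under 0.05. Of the 8 F tests of both kinds, 4 were thus called over all arrays. With each array left out in turn 2 to 4 were called, and with a pseudocount of 1 there were 3.

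Srm, the spermidine synthase, was higher in injured muscle, on a control baseline that rests on discordant arrays. The controls read 8.3, 70.0 and 88.2. After freezing Srm read 196, 171 and 208 at 6 h, 186, 221 and 316 at 1 day, and 212 and 247 at 3 days with 71.3 on array 436. At 7 days it read 106 and 131. All freeze arrays except 436 thus lay above the highest control. After contraction it read 104, 102 and 144 at 6 h, 158 and 209 at 1 day, and 152, 88.0 and 208 at 3 days. At 7 days after contraction it read 98.1, 80.8 and 68.6, overlapping the controls.

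Srm rose after freezing by 1.86 ± 0.45 (SE) log2 units at 6 h (adjusted p = 0.014), 2.14 ± 0.45 at 1 day (adjusted p = 0.0034) and 1.59 ± 0.45 at 3 days (adjusted p = 0.023). At 7 days the difference was 1.22 ± 0.50 (adjusted p = 0.14). After contraction it rose at 3 days, by 1.46 ± 0.45 (adjusted p = 0.047). The differences at 6 h (1.19, adjusted p = 0.28), 1 day (1.79, adjusted p = 0.079) and 7 days (0.75, adjusted p = 0.65) did not pass. Without control array 1, the dim one, the freeze differences were 1.16 at 6 h (adjusted p = 0.093) and 0.89 at 3 days (adjusted p = 0.12), and contraction 3 days was 0.75 (adjusted p = 0.24). The rise at 1 day after freezing was called with each of the 25 arrays left out in turn, at adjusted p of up to 0.025, and was 1.44 without control 1 (adjusted p = 0.022). Fitted on the arrays of the injured group and the controls alone, Srm was not called at 6 h (adjusted p = 0.060) or 3 days (adjusted p = 0.35) after freezing or at 3 days after contraction (adjusted p = 0.099). The contraction 3-day call was lost with any of 19 arrays left out. The freeze 6-h call was also lost without freeze 6-h array 418 (adjusted p = 0.053) or 446 (adjusted p = 0.065), and the freeze 3-day call without array 450 (adjusted p = 0.15) or 468 (adjusted p = 0.16). Without array 436 contraction 1 day (adjusted p = 0.014) and freeze 7 days (adjusted p = 0.048) also passed. The suffix of this probe set (_f_) marks probes that match a family of similar sequences, so its signal may hold more than Srm.

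Sat1, the acetyltransferase that begins polyamine breakdown, had the widest range of the tested genes. The controls read 82.1, 128 and 118. After freezing Sat1 read 834, 836 and 1007 at 6 h and 689, 409 and 467 at 1 day. At 3 days it read 1715 and 1553 with 73.5 on array 436, and at 7 days 393 and 412. Sat1 thus had peaks at 6 h and 3 days after freezing, with lower values at 1 day, when Arg1 and Odc1 were at their highest. After contraction it read 190.3, 601 and 254 at 6 h, 232 and 229 at 1 day, and 727, 543 and 342 at 3 days. At 7 days it read 179.8, 180.5 and 211, still above each control.

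Sat1 rose by 2.90 ± 0.68 (SE) log2 units at 6 h after freezing (7.47-fold, adjusted p = 0.012), by 2.11 ± 0.68 at 1 day (adjusted p = 0.043) and by 2.35 ± 0.68 at 3 days (adjusted p = 0.026). Freeze 7 days (1.78, adjusted p = 0.16) and contraction at 6 h (1.42, adjusted p = 0.47), 1 day (1.01, adjusted p = 0.75), 3 days (2.12, adjusted p = 0.056) and 7 days (0.75, adjusted p = 0.81) did not pass. Without array 436, and with its standard errors at 0.30 to 0.33, the freeze 3-day difference was 3.77 ± 0.33 (SE, adjusted p = 5.4e-09), all 4 freeze times passed, and contraction passed at 6 h (adjusted p = 0.0053) and 3 days (adjusted p = 1.4e-05). Over 25 arrays the freeze 1-day call was lost with any of 14 arrays left out, the highest adjusted p being 0.12. The freeze 6-h call was lost without control 1 (adjusted p = 0.052) or freeze 6-h array 446 (adjusted p = 0.058). The freeze 3-day call was lost without control 1 (adjusted p = 0.076), control 3 (adjusted p = 0.058), array 450 (1.61, adjusted p = 0.20) or array 468 (1.68, adjusted p = 0.20). It was also lost when that group and the controls were fitted alone (adjusted p = 0.35), a setting in which contraction 3 days (adjusted p = 0.0011) and freeze 7 days (adjusted p = 0.0029) passed.

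**Figure D3:**
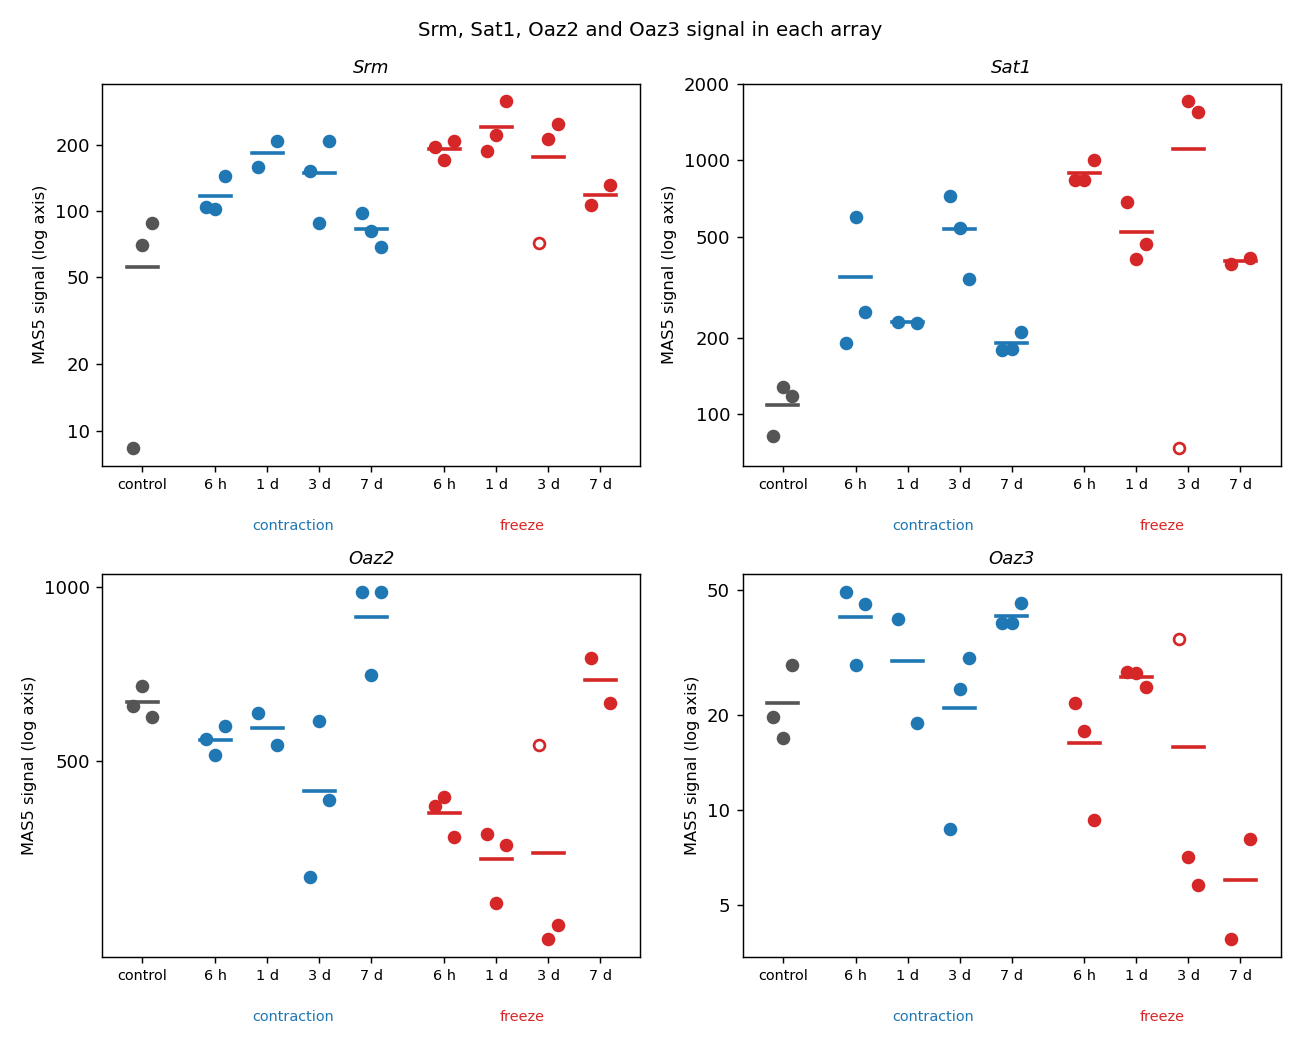
MAS5 signal (vertical log axis) of Srm, Sat1, Oaz2 and Oaz3 in each of the 25 arrays by group along the horizontal axis, drawn with the same symbols as the plot of Arg1 and Odc1. Sat1 reads 1553 and 1715 on 2 freeze 3-day arrays and 73.5 on the open point, and Oaz2 reads lowest on the same 2 arrays.

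Oaz2, an antizyme, moved the other way. The controls read 624, 676 and 597. After freezing Oaz2 read 419, 433 and 369 at 6 h, 373, 284 and 357 at 1 day, and 246 and 260.1 at 3 days with 532 on array 436. By 7 days it read 753 and 629.6, which overlapped the controls. The freeze arrays of the first 3 times were thus all below each control, the one on array 436 by the least. After contraction Oaz2 read 546, 512 and 576 at 6 h, 607 and 534 at 1 day, and 315, 587 and 428 at 3 days. At 7 days it read 980.4, 705 and 982, above each control.

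Oaz2 fell by 0.88 ± 0.24 (SE) log2 units at 1 day after freezing (adjusted p = 0.020) and by 0.93 ± 0.24 at 3 days (adjusted p = 0.018). The differences at 6 h (−0.62, adjusted p = 0.17) and 7 days (0.12, adjusted p = 0.81) did not pass. None of the contraction differences passed, at −0.21, −0.15, −0.54 (adjusted p = 0.16) and 0.47 (adjusted p = 0.57). Without array 436 the freeze 3-day difference was −1.28 (adjusted p = 2.1e-05), and freeze 6 h (adjusted p = 0.028) and contraction 3 days (adjusted p = 0.035) also passed. The freeze 1-day call was lost without control 2 (adjusted p = 0.058) or freeze 1-day array 460 (adjusted p = 0.083). The freeze 3-day call was lost without array 450 (adjusted p = 0.15) or 468 (adjusted p = 0.14), and when that group and the controls were fitted alone (adjusted p = 0.35).

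Oaz3, an antizyme described mainly from testis, was dim, at the 28.7th percentile of probe sets by mean. Its control arrays lay at 17.0 to 28.9, its contraction arrays at 8.7 to 49.4 and its freeze arrays at 3.9 to 34.9, of which 34.9 was array 436. No difference from control passed for Oaz3. The largest were −0.87 ± 0.38 (SE, adjusted p = 0.17) at 7 days after freezing and 0.65 ± 0.34 (adjusted p = 0.57) at 7 days after contraction. Without array 436, freeze 3 days passed (−0.83, adjusted p = 0.044).

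Between the injuries, none of the 4 tested genes was called at a single time. At 6 h, 1 day, 3 days and 7 days 0.305%, 1.45%, 0.389% and 0.368% of all probe sets were called, and 2, 1, 0 and 1 of the 4 genes had an unadjusted p under 0.05 by limma. Averaged over the 4 times 2 of the 4 were called, both lower after freezing, against 6.11% of all probe sets. They were the antizymes Oaz2 (−0.47 ± 0.13, SE, adjusted p = 0.036) and Oaz3 (−0.70 ± 0.18, adjusted p = 0.027). The Oaz2 call was lost with any of 16 arrays left out (highest adjusted p 0.091) and the Oaz3 call with any of 8 (highest adjusted p 0.081).

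Sat1 differed between injuries by 1.49 at 6 h, 1.10 at 1 day, 0.23 at 3 days and 1.03 at 7 days, higher after freezing, with a mean of 0.96 ± 0.36 (SE, adjusted p = 0.11). Without array 436 it passed at 6 h (adjusted p = 0.0082), at 1 day (adjusted p = 0.035), at 3 days (1.64, adjusted p = 0.0013) and in the mean (1.32 ± 0.16, adjusted p = 2.0e-06). In that fit Oaz2 also passed at 1 day (−0.74, adjusted p = 0.022) and 3 days (−0.74, adjusted p = 0.014), and Oaz3 at 7 days (−1.52, adjusted p = 0.0049). Without array 436, 9 of the 20 tests were called. They were 1 at 6 h, 2 at 1 day, 2 at 3 days, 1 at 7 days and 3 in the mean, against 2.36%, 10.1%, 16.9%, 7.27% and 30.9% of all probe sets. Srm differed by 0.67, 0.35, 0.14 and 0.47, with a mean of 0.41 ± 0.24 (SE, adjusted p = 0.30), and was not called with or without array 436.

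Across the 25 arrays, log2 values of Arg1 and Odc1 correlated at r = 0.754, Srm and Sat1 at 0.690, and Sat1 and Oaz2 at −0.705. These correlations describe arrays that share groups and scaling, and carry no p. Oaz2 correlated negatively with each of Arg1 (−0.652), Odc1 (−0.508) and Srm (−0.633) as well.

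The signal of macrophage markers, and of other marker lists, moved with several of these genes. Summed over 19 markers, all on the array, it was 921 to 1276 in controls, 3434 to 6136 at 6 h, 8874 to 12111 at 1 day and 7934 to 8602 at 7 days after freezing. At 3 days after freezing it was 29902 and 31256, with 820 on array 436. After contraction it was 1238 to 2212 at 6 h, 1744 to 2694 at 1 day, 10503 to 15510 at 3 days and 2118 to 3545 at 7 days. Arg1 and the marker sum thus peaked at different times: 3 days after freezing Arg1 stood near its 6-h level while the marker sum was at its highest. Single markers differed, in means that include array 436. Ctss (1330 and 4335) and Mpeg1 (947 and 2934) averaged higher at 3 days than at 1 day after freezing, whereas Msr1 (203 and 127) averaged lower. Cd14 averaged 1226 at 6 h and 278 at 3 days after freezing. Cx3cr1 averaged 151 in controls and 88.3 at 1 day after freezing. Sat1 followed the sum more closely (r = 0.807 on the log2 scale over 25 arrays) than did Arg1 (0.554) or Odc1 (0.494), and Oaz2 ran against it (−0.659). Of the 19 markers 3 were called higher at 6 h, 14 at 1 day, 16 at 3 days and 6 at 7 days after freezing, and 13 at 3 days after contraction, beside 4.85%, 14.2%, 17.9%, 5.29% and 8.25% of all probe sets called in either direction.

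Summed over the 13 of 14 neutrophil markers on the array, the signal was 3480 to 5019 at 6 h and 2398 to 3957 at 1 day after freezing, against 653 to 1018 in controls and 468 to 2286 in all other groups. Much of this sum came from S100a8 and S100a9, which averaged 27.9 and 11.9 in controls and 1855 and 1129 at 6 h after freezing. Csf3r (390 and 242), Camp (91.3 and 59.8), Mpo (51.9 and 21.2) and Ngp (14.1 and 10.5) averaged lower at 6 h after freezing than in controls. The neutrophil granule genes Ltf and Ngp were below 13 on 17 arrays each. Hepatocyte markers, listed because Arg1 is a liver gene, summed to 149 to 373 over 7 genes in every group, and albumin (Alb) was below 13 on 13 arrays. None of the 4 hepatocyte markers tested was called in any comparison by limma, where 1 had an unadjusted p under 0.05, at 3 days after freezing, and 1 was called lower there without array 436.

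Proliferation genes, 15 of 17 on the array, summed to 814 to 856 in controls, 1879 to 2236 at 1 day after freezing and 2222 to 3137 at 3 days after contraction. At 3 days after freezing they summed to 4825 to 5122, with 845 on array 436. On the 2 arrays with the highest proliferation sums Odc1 read 173 and 168, below its readings at 1 day after freezing. The genes of this list did not all move together, in means that include array 436. Cdk1 (17.6 and 234) and Top2a (12.1 and 107) averaged higher at 3 days after freezing than in controls. Mki67 (50.9 and 37.8) and the dim Mcm6 (14.5 and 11.1) averaged lower. Myoblast markers summed to 1310 to 1447 in controls, 2826 to 3547 at 6 h after contraction and 3414 to 3994 at 6 h after freezing. Most of that rise was Myod1, which averaged 274 in controls, 2023 at 6 h after contraction and 2605 at 6 h after freezing. Myog averaged 133 in controls and 245 at 6 h after freezing, while Des (739 and 689), Ncam1 (93.3 and 80.7) and Cdh15 (115 and 71.5) averaged lower there. Fast-fibre markers summed to 127859 to 217848 in controls and to 38270 and 49091 at 3 days after freezing, with 217992 on array 436. Erythroid markers summed to 2941 to 4516 in controls and 6940 to 11988 at 6 h after freezing, and fibroblast markers to 2711 to 4954 and 21283 to 21596 at 7 days after freezing. Endothelial markers summed to between 616 and 1399 on all arrays and to 933 to 1147 in controls. They summed to less at 3 days (687 to 867) and 7 days (616 to 686) after contraction and at 3 days after freezing (699 to 760.5). At 1 day after freezing they summed to 1173 to 1276, above each control. The ratio of 3′ to 5′ actin probe sets, a sign of RNA integrity, was 0.560 to 0.595 in controls, 1.014 to 1.312 at 1 day after freezing and 0.923 to 1.213 at 3 days after contraction, the 2 groups with the highest Odc1. At 3 days after freezing it was 0.741 to 1.088. The part of these marker and RNA differences in the values of Arg1, Odc1, Srm, Sat1 and Oaz2 was not tested.

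**Figure D4:**
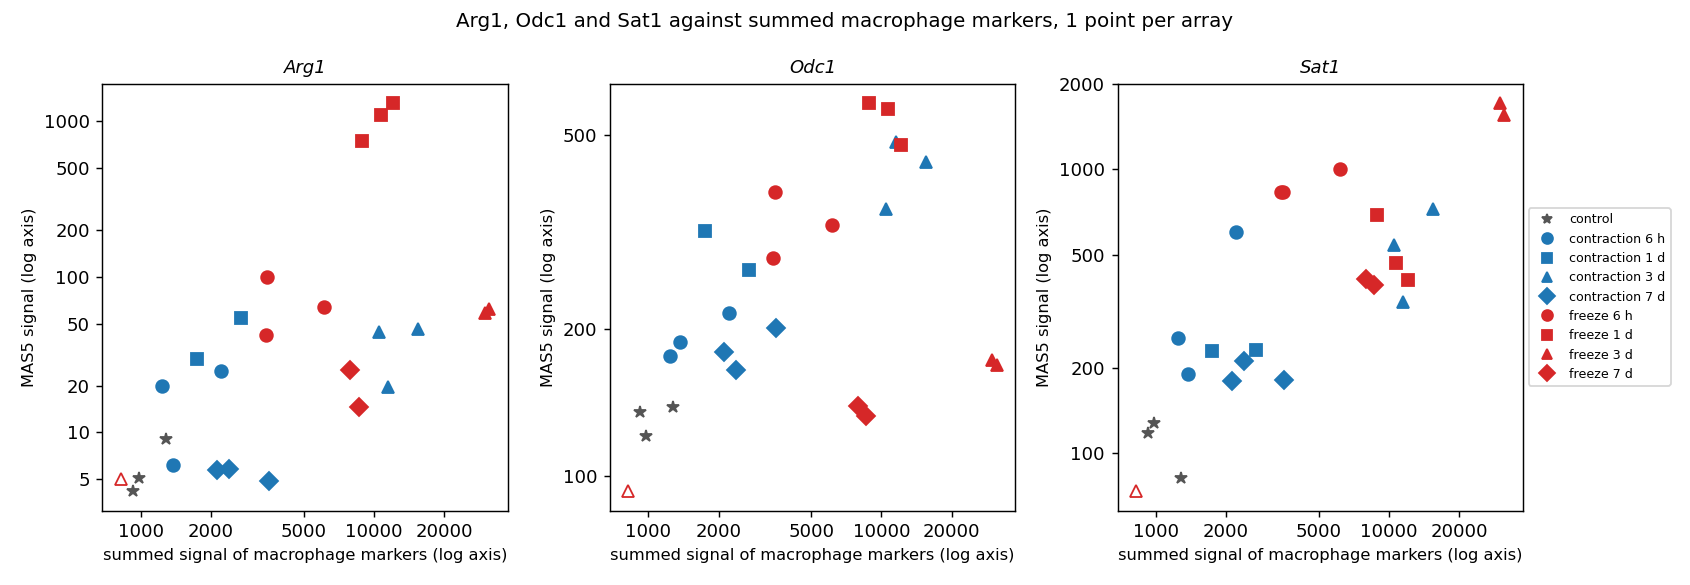
MAS5 signal of Arg1, Odc1 and Sat1 (vertical log axis) against the summed signal of 19 macrophage markers (horizontal log axis), 1 point per array, with symbols for time and colours for injury. The open triangle is array 436. The 3 freeze 1-day arrays lie highest for Arg1 at marker sums of 8874 to 12111, and the freeze 3-day arrays at sums of 29902 and 31256 read 58.5 and 62.2.

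The other genes of polyamine metabolism were called in both directions. Of 24 listed, 13 were on the array with a probe set of their own and all 13 were tested. After contraction 1 rose at 6 h, 1 at 1 day and 1 at 3 days, when 1 fell, and none passed at 7 days, where 3 had an unadjusted p under 0.05. After freezing 1 rose and 1 fell at 6 h, 1 rose and 2 fell at 1 day, 1 fell at 3 days and 2 rose at 7 days. Of all probe sets, 1.87%, 1.79%, 8.25% and 0.537% were called at the 4 times after contraction and 4.85%, 14.2%, 17.9% and 5.29% after freezing. Azin1, the antizyme inhibitor that frees ornithine decarboxylase from antizyme, gave 5 of the 7 rises. It read 290, 197 and 395 in controls, 1576, 990.1 and 1338 at 6 h and 1017 and 1088 at 1 day after contraction. After freezing Azin1 read 464, 967 and 622 at 6 h and 644, 776 and 713 at 1 day. The contraction arrays of both times lay above every control and freeze array.

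Azin1 rose by 2.13 ± 0.30 (SE) log2 units at 6 h (adjusted p = 8.5e-05) and 1.85 ± 0.34 at 1 day (adjusted p = 0.0025) after contraction. After freezing it rose by 1.17 at 6 h (adjusted p = 0.022), 1.29 at 1 day (adjusted p = 0.0074) and 1.26 at 7 days (adjusted p = 0.032). At 3 days its differences of 0.85 after contraction (adjusted p = 0.077) and 0.68 after freezing (adjusted p = 0.11) did not pass. The freeze minus contraction difference of Azin1 was −0.95 ± 0.30 at 6 h (adjusted p = 0.25) and was not called at any time over all arrays. The F test of its injury by time interaction was called without array 436 (adjusted p = 0.038) and not with it (adjusted p = 0.57). The contraction 1-day call was lost without array 463 (adjusted p = 0.066). The freeze 6-h call was lost with any of 4 arrays left out (highest adjusted p 0.13), and the freeze 7-day call with any of 4 (highest adjusted p 0.27). Odc1 at 6 h after contraction, by comparison, was 0.51 above control.

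Atp13a3, a P-type ATPase linked to polyamine transport, rose at 3 days after contraction (2.10 ± 0.44, adjusted p = 0.0084) and 7 days after freezing (2.30 ± 0.49, adjusted p = 0.013). It read 98.7 to 112 in controls, 649, 244 and 771 at 3 days after contraction, and 544 and 606 at 7 days after freezing. Its contraction call was lost without array 467 (adjusted p = 0.053) and its freeze call without either 7-day array (adjusted p = 0.13 and 0.12). Mat2b, the regulatory subunit of the enzyme that makes S-adenosylmethionine, fell after freezing at 6 h (−0.89, adjusted p = 0.0071), 1 day (−0.93, adjusted p = 0.0034) and 3 days (−0.73, adjusted p = 0.019). The 3-day call was lost without control 1 (adjusted p = 0.055), array 450 (adjusted p = 0.15) or array 468 (adjusted p = 0.14). Adi1, of the methionine salvage pathway that recycles the by-product of polyamine synthesis, fell at 1 day after freezing (−1.04, adjusted p = 0.031), and Apip of the same pathway at 3 days after contraction (−0.64, adjusted p = 0.050). Those calls were lost with any of 4 and 20 arrays left out. Eif5a, the protein modified with spermidine, read 8.7 to 52.9 over all arrays and was not called against control. Sms and Smox are among the listed genes not measured here.

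Genes of arginine handling were called in both directions. Of 26 listed, 20 were on the array and 16 were tested. After freezing 3 rose at 6 h, 3 rose and 1 fell at 1 day, 2 rose and 3 fell at 3 days and 1 rose at 7 days. After contraction 2 fell at 3 days, and none was called at the other times, where 1 had an unadjusted p under 0.05 at 6 h, 1 at 1 day and 3 at 7 days. Beside the shares of all probe sets, the calls at 7 days after freezing (1 of 16 against 5.29%) and at 3 days after contraction (2 of 16 against 8.25%) lie near the background. At 6 h, 1 day and 3 days after freezing the background was 4.85%, 14.2% and 17.9%. Nos2, the inducible nitric oxide synthase that competes with arginase for arginine, read 67.6, 40.1 and 35.1 in controls and 8.3 to 15.3 at 3 days after contraction. It fell there by 1.22 ± 0.27 (SE, adjusted p = 0.0098) and at 3 days after freezing by 1.02 (adjusted p = 0.019). Leaving out control 1 ended both calls (adjusted p = 0.054 and 0.078), contraction array 435 the first (adjusted p = 0.060), and arrays 450 and 468 the second (adjusted p = 0.12 and 0.13). Nos2 was thus lowest at 3 days after either injury, on array 436 (17.4) as on the other freeze arrays, and it was not called higher in any comparison.

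Nos3, the endothelial synthase, rose at 6 h (2.37 ± 0.40, adjusted p = 0.00054) and 1 day (1.80, adjusted p = 0.0050) after freezing, and Gch1, which supplies the synthases' cofactor, at 6 h (1.40, adjusted p = 0.0014). Slc7a7, an amino acid transporter, rose at 1 day (2.30, adjusted p = 0.029) and 3 days (2.45, adjusted p = 0.022). Each of the Slc7a7 calls was lost with any of 5 arrays left out (highest adjusted p 0.098 and 0.18), and the 3-day value was 1.78 without array 450, 1.86 without 468 and 3.72 without 436. Slc7a2, a cationic amino acid transporter, fell at 3 days after freezing (−0.78, adjusted p = 0.041, lost with any of 5 arrays left out), Asl of the urea cycle likewise (−0.996, adjusted p = 0.043), and Ass1 rose there (0.80, adjusted p = 0.020). The Asl call was lost with any of 8 arrays left out and the Ass1 call with any of 3. Ass1 was also called at 6 h and 1 day after freezing, and each of those calls was lost with any of 4. Oat, which diverts ornithine away from polyamines, fell at 3 days after contraction (−1.10, adjusted p = 0.022), from 625, 652 and 838 in controls to 289.5, 368 and 304. That call was lost without control 3 (adjusted p = 0.085), contraction array 435 (adjusted p = 0.094) or 467 (adjusted p = 0.072). Gamt at 1 day after freezing (−0.60, adjusted p = 0.046) and Ddah2 at 7 days (0.85, adjusted p = 0.049) passed narrowly, and their calls were lost with any of 13 and 20 arrays left out. Arg2, the second arginase, read 4.9 to 48.1 over all arrays and was not called in any comparison. Slc7a1 did not pass the filter on low values.

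**Figure D5:**
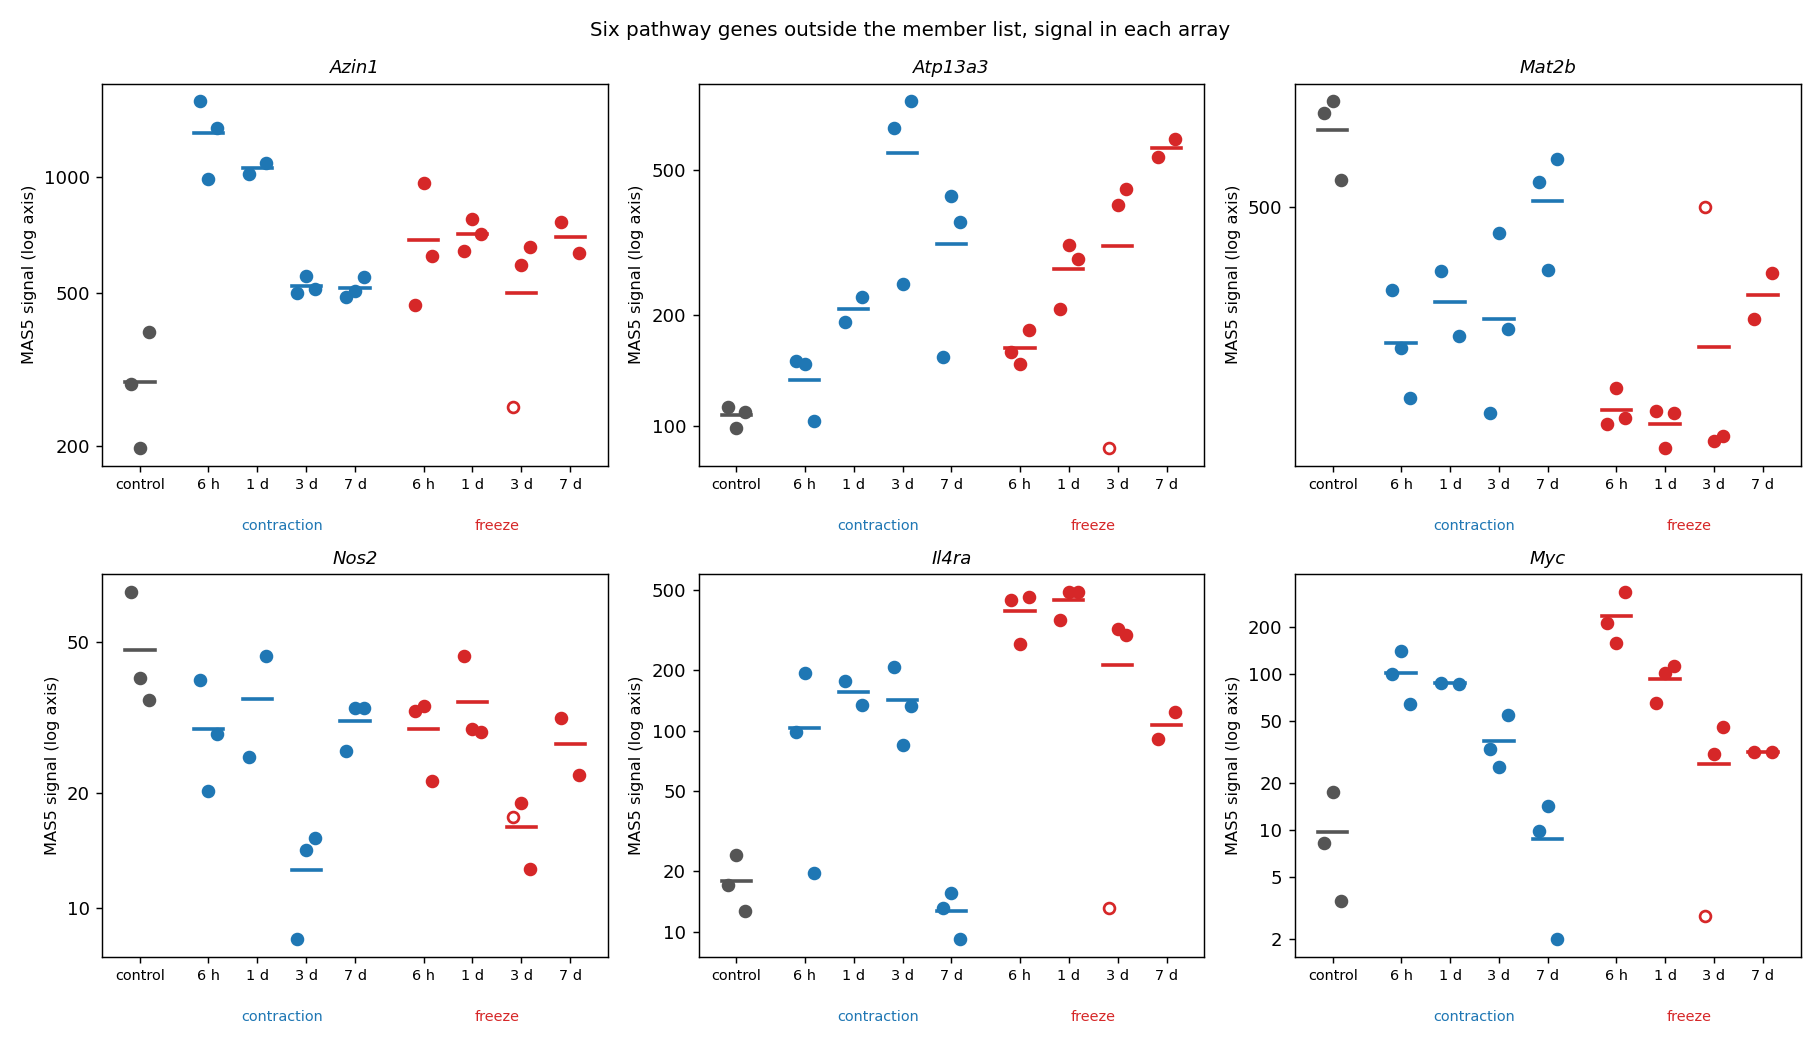
MAS5 signal (vertical log axis) of Azin1, Atp13a3, Mat2b, Nos2, Il4ra and Myc in each of the 25 arrays by group along the horizontal axis, drawn with the same symbols as the plot of Arg1 and Odc1. Azin1 is highest at 6 h after contraction, at 990.1 to 1576, and Nos2 reads 8.3 to 15.3 at 3 days after contraction.

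Genes known to induce Arg1 in macrophages or to be expressed beside it were the next list. Of 22 such genes 15 were on the array and 14 were tested, and 6 rose at 6 h, 7 at 1 day and 5 at 3 days after freezing, where 4.85%, 14.2% and 17.9% of all probe sets were called. After contraction 1 rose at 6 h, 1 at 1 day and 3 at 3 days (1.87%, 1.79% and 8.25% of all), and none fell in any group. After contraction the call of Il4ra at 3 days was lost with any of 18 arrays left out, that of Mrc1 at 3 days with any of 8 and that of Cebpb at 1 day with any of 4. After freezing each of the 5 calls at 3 days was lost without array 450 or 468. The freeze 6-h call of Hif1a was lost with any of 4 arrays left out. At 1 day after freezing the calls of Cebpb, Klf4 and Mrc1 were lost with any of 5, 2 and 2. The other freeze calls at 6 h and 1 day were kept with each array left out. At 7 days none was called after either injury, where 4 after freezing and 0 after contraction had an unadjusted p under 0.05. Il4ra, the receptor chain for interleukins 4 and 13, read 12.7 to 24.1 in controls, 448, 269 and 463 at 6 h and 358, 488 and 492 at 1 day after freezing. It rose by 3.69 (adjusted p = 0.0013) and 3.89 (adjusted p = 0.00077) at those times. Chil3, a marker of alternatively activated macrophages, rose by 3.87 ± 0.49 at 1 day after freezing (adjusted p = 5.0e-05) and exceeded contraction there by 2.73 (adjusted p = 0.014). That last call was lost without contraction array 463 (adjusted p = 0.32), freeze array 422 (adjusted p = 0.057) or 460 (adjusted p = 0.053). Klf4 rose at 6 h after both freezing (2.15, adjusted p = 0.00014) and contraction (1.41, adjusted p = 0.020), the second call being lost with any of 4 arrays left out.

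Of 10 genes of classically activated macrophages 8 were tested, and 4 rose at 6 h, 1 at 1 day, 2 at 3 days and 1 at 7 days after freezing, against 1 at 6 h after contraction. Of all probe sets 4.85%, 14.2%, 17.9%, 5.29% and 1.87% were called in those comparisons, so that the count of 1 in 8 at 1 day and 2 in 8 at 3 days after freezing lie near the background. The contraction call, of Cxcl10, was lost with any of 18 arrays left out, and its freeze 3-day call with any of 19. The calls of Ccl5 at 3 and 7 days after freezing were lost with any of 4 and 2. At 6 h after freezing the call of Il12b was lost with any of 20 arrays left out (highest adjusted p 0.23). That of Cxcl10 at this time was lost with any of 5 (highest adjusted p 0.13). Il1b rose by 4.40 (adjusted p = 0.00012) and Il6 by 4.00 (adjusted p = 2.5e-05) at 6 h after freezing. At 1 day Il1b (3.32, adjusted p = 0.0023) was the one called.

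Myc, whose product binds the Odc1 gene, rose at 6 h after freezing (3.42 ± 0.40, SE, adjusted p = 6.3e-06) and after contraction (2.32 ± 0.40, adjusted p = 0.0013). It rose at 1 day as well, by 2.23 (adjusted p = 0.0012) and 2.18 (adjusted p = 0.0088). It read 8.2, 17.5 and 3.5 in controls, 209, 158 and 334 at 6 h after freezing and 99.0, 140.4 and 63.8 at 6 h after contraction. At 3 days after contraction, the time of the Odc1 peak there, Myc read 32.7, 25.1 and 54.0 and was not called (1.15, adjusted p = 0.076). The contraction 1-day call of Myc was lost without array 421 (adjusted p = 0.097) or 463 (adjusted p = 0.12). Of 18 tested genes of the Myc network and its targets, 1, 5, 5 and 0 rose at the 4 times after freezing and 1, 1, 3 and 0 after contraction. The 1 call at 6 h after freezing, that of Myc, lies near the 4.85% of all probe sets, and the other freeze shares were 14.2%, 17.9% and 5.29%. After contraction the shares were 1.87%, 1.79%, 8.25% and 0.537%. None fell, and at 7 days 6 after freezing and 0 after contraction had an unadjusted p under 0.05. Each of the 5 calls at 3 days after freezing was lost without array 450 or 468, and that of Fbl with any of 22 arrays left out. The 5 calls at 1 day after freezing were kept with each array left out. At 3 days after contraction the calls of Cad, Ncl and Npm1 were lost with any of 22, 3 and 4. Between injuries none of the 18 was called at any time or in the mean, where 6 had an unadjusted p under 0.05. Cad, the first enzyme complex of pyrimidine synthesis, rose at 1 day (2.15, adjusted p = 0.0027) and 3 days (1.81, adjusted p = 0.015) after freezing, the second call being lost without array 450 (adjusted p = 0.13) or 468 (adjusted p = 0.13) and its value being 2.65 without array 436.

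The genes whose log2 values were most like those of Arg1 over 25 arrays, among 6915 other tested genes, were Pdpn (r = 0.938), Ccl7 (0.907), Hspa5 (0.899), Bcl2l1 (0.891) and Creld2 (0.884). Pdpn encodes the membrane glycoprotein podoplanin, Ccl7 a monocyte chemokine, and Hspa5 the main chaperone of the endoplasmic reticulum. Pdpn averaged 31.3 in controls, 351 at 6 h and 1450.1 at 1 day after freezing, and 129 at 7 days. Hspa5 averaged 638 in controls, 3030.0 at 1 day after freezing and 776 at 7 days.

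Those most like Odc1 were Uck2 (0.877), Eif4ebp1 (0.873), Slc2a1 (0.857), Txnrd1 (0.855) and Gtpbp4 (0.835). Uck2 is a uridine-cytidine kinase, Eif4ebp1 a repressor of cap-dependent translation, Slc2a1 the glucose transporter GLUT1 and Txnrd1 a thioredoxin reductase. Uck2 averaged 77.1 in controls, 536 at 3 days after contraction and 721 at 1 day after freezing, and 250.4 at 3 days after freezing (315.5 without array 436). Its highest mean in each injury thus came at the same time as that of Odc1. Its contraction 1-day arrays (487 to 518), however, lay within the range of its contraction 3-day arrays (452 to 607). Each r describes arrays that share groups, and none was tested.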

How the data were processed

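Total RNA of 25 samples was measured on Affymetrix U74Av2 arrays. The deposited value of each probe set is a linear intensity signal. The submitters' processing notes name MAS5 for it, with a version and settings that the sources used here do not give. Array means after trimming 2% at either end were 149.96 to 149.97, so the arrays appear to share a scale set before deposit, and changes are relative to the bulk of each array. Labels name TRIzol and RNeasy for the extraction.

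Of 12488 probe sets, 66 were Affymetrix controls, 10833 had 1 symbol in the platform annotation, 396 had several and 1237 were unlisted. Only those with 1 symbol were named. Signals were taken to log2 after adding 13, the 20th percentile. A probe set was tested if at least 2 arrays read it above their own 40th percentile (9506). limma 3.58.1 (R 4.3.3; lmFit, and eBayes with trend) fitted 9 group means to the 25 arrays together, with 16 residual and 5.46 prior degrees of freedom, and p-values were adjusted by Benjamini-Hochberg over all 9506. Each injury and time was compared with control, the injuries with each other at each time and in the mean, and F tests covered any change and the interaction. The fit was tested on simulated data with known changes.

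The genes and lists were chosen with earlier results of these data known. Named were all measured members, per list and comparison up to 2 called genes with the largest rise and 2 with the largest fall, a short fixed list (Arg2, Nos2, Sms, Smox, Azin1, Slc7a1, Slc7a2, Oat, Eif5a and Myc), and the 5 genes most correlated with Arg1 and with Odc1. Alternatives tried were other pseudocounts, filters, normalizations, fits and thresholds, and each array left out. Promoter windows are RefSeq's on GRCm38.p6.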

Additional observations from a re-analysis of the deposited data

Results flagged for a closer look

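These genes differed between freeze and contraction injury by a test of the difference itself, with all values in log2 units and freeze minus contraction. Averaged over the 4 times, the antizymes Oaz2 (−0.47 ± 0.13, SE, adjusted p = 0.036) and Oaz3 (−0.70 ± 0.18, adjusted p = 0.027) were lower after freezing. Among genes of arginine handling, Nos3 (1.11 ± 0.21, adjusted p = 0.0035), Ddah2 (0.41 ± 0.12, adjusted p = 0.042) and Slc7a7 (1.35 ± 0.36, adjusted p = 0.032) were higher in the mean. The Nos3 call was kept with each array left out in turn, and the Ddah2 call was lost with any of 18 and the Slc7a7 call with any of 11 (highest adjusted p 0.10 and 0.096). Among regulators and companions of Arg1, Il4ra (1.43 ± 0.36, adjusted p = 0.024), Hif1a (0.83 ± 0.21, adjusted p = 0.027) and Chil3 (1.11 ± 0.27, adjusted p = 0.021) were higher in the mean, and Chil3 also at 1 day (2.73 ± 0.57, adjusted p = 0.014). The mean calls of Il4ra, Hif1a and Chil3 were lost with any of 3, 12 and 2 arrays left out, and the 1-day call of Chil3 with any of 3. Among genes of classically activated macrophages, Il1b was higher at 6 h (3.29 ± 0.65, adjusted p = 0.030), at 1 day (3.43 ± 0.73, adjusted p = 0.017) and in the mean (2.06 ± 0.34, adjusted p = 0.0018). The 6-h call was lost with any of 4 arrays left out (highest adjusted p 0.29), the 1-day call with any of 3 (highest adjusted p 0.26) and the mean call with none. The 6-h value was 2.59 without contraction array 445 and 4.56 without 431. Il6 (1.14 ± 0.28, adjusted p = 0.023) and Ccl5 (0.86 ± 0.20, adjusted p = 0.015) were higher in the mean, with calls lost without contraction array 463 or freeze array 440 for Il6 and without freeze array 440 for Ccl5. The Oaz2 and Oaz3 calls were lost with any of 16 and 8 arrays left out. No group had more than 3 arrays, so no single array was tested as an outlier within its group.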

How the results depend on the processing

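Of the 32 tests of Srm, Sat1, Oaz2 and Oaz3 against control, 9 were called. The count was 17 without freeze 3-day array 436, 17 with array weights, 3 without control 1 and 5 without freeze 6-h array 446. It was 6 with only the compared groups fitted and 1 at an adjusted p under 0.01. With each array left out it ran from 3 to 17. Between injuries 2 of 20 were called, 1 of 15 with a filter at the 60th percentile and 4 of 16 with only the compared groups fitted. The count was 11 with array weights and 0 at an adjusted p under 0.01. That count ran from 0 to 9 with each array left out, 9 being without array 436, and it fell to 0 or 1 without any of 16 other arrays. Of 8 F tests 4 were called, 1 at an adjusted p under 0.01, and 2 to 4 with each array left out. Pathway genes were called against control in 75 of 552 tests. The count was 150 with array weights and 32 at an adjusted p under 0.01. With each array left out it ran from 48 (without control 1) to 157 (without array 436). Calls over all probe sets moved as well. At 3 days after freezing they numbered 1698 over all arrays and 7 to 4029 with each array left out. Between injuries pathway genes were called in 12 of 345 tests, 19 with a pseudocount of 64 and 20 of 276 with only the compared groups fitted. The count was 100 with array weights and 2 at an adjusted p under 0.01. It ran from 4 (without contraction 1-day array 463) to 75 (without array 436). It was 19 without freeze 6-h array 432, 6 without freeze 7-day array 440 and 7 without 454. Of all probe sets, 581 were called in the mean difference between injuries, and 187 to 2939 with each array left out. Without array 436 the F test of the interaction called the pathway genes Azin1, Atp13a2, Ddah2, Il10ra, Mrc1 and Ccl5. Over all 25 arrays that test called no pathway gene. Of all probe sets it called 0.589% over 25 arrays and 4.45% without array 436. Of the 10 genes most like Arg1 and Odc1, 5 remained when likeness was taken over the 9 group means. The causes were not tested. No called value reversed. The Arg1 difference at 1 day after freezing (5.77) was 7.22 with a pseudocount of 1 and 3.96 with 64, since its control signals lie below 13. The Arg1 difference between injuries at 3 days (−0.06), which was not tested, was 0.61 without array 436. No replicate number is shared between groups. Adjacent sample numbers were tried as a random block (correlation −0.0937), with 9, 2, 4, 76 and 11 calls in the order above. Dim signals limit Arg1, Slc7a7, Myc and Il4ra in controls, Nos2 at 3 days after either injury, Oaz3, Arg2 and Eif5a. The log2 differences of these genes depend on the constant added.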
